A study of Mus musculus with 6 samples.

Results

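The genes described here are 10 that export sterols, assemble lipoproteins, take up lipoproteins or their lipids, or remodel lipids in plasma. They are the sterol pumps Abcg5, Abcg8 and Abca1, the HDL receptor Scarb1, the lipases Lpl and Lipc and the plasma transfer protein Pltp. The others are the esterifying enzyme Lcat, the lipoprotein assembly protein Mttp and the remnant receptor Lrp1. Liver RNA came from 3 male mice lacking chromogranin A (Chga_KO) and 3 male wild-type mice (WT), all 12 weeks old, and each sample was read on 1 Affymetrix array. The labels describe the strains only as the published knockout line and its wild type, with no genetic background, littermate status, feeding state or array batch. The p-values rest on the spread between these samples, with the variance of each probe set drawn toward that of probe sets of like intensity. Members were taken as every probe set annotated to 1 of the 10 symbols alone, and 9 of the 10 genes had one, through 16 of the 20380 probe sets with 1 gene. Lipc, the hepatic lipase, had none in the annotation used here and was not analysed.

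Hepatocytes dispose of cholesterol along several routes. ABCG5 and ABCG8 pair into a pump of the canalicular membrane that exports cholesterol and plant sterols into bile, and loss of either partner causes sitosterolemia. ABCA1 loads cholesterol and phospholipid onto apolipoprotein A-I to form nascent HDL, LCAT esterifies the cholesterol of those particles, PLTP transfers phospholipids onto them, and SCARB1 takes up their cholesteryl ester. MTTP loads triglyceride onto apolipoprotein B for VLDL, LPL hydrolyses the triglyceride at the capillary wall, and LRP1 clears the remnants. Abcg5, Abcg8 and Abca1 are known targets of the liver X receptors.

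Abcg5 and Abcg8 lie head to head and are transcribed away from each other, and the stretch between their starts is shown because the pair shares it. In the RefSeq promoter table for GRCm38.p6, which holds windows of 300 bases, those of the 2 genes overlap by 209 bases, and 109 bases separate the starts at chr17:84683012-84683120. The stretch is given on the plus strand, so Abcg5 reads away to the left and Abcg8 to the right, and capitals mark TTATCT, the reverse complement of the GATA-type motif AGATAA.

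Abcg5-Abcg8 intergenic: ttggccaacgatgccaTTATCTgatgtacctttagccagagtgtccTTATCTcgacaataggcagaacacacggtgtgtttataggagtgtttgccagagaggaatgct

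AGATAA, searched on both strands, was found at bases 17 to 22 and 47 to 52 of that stretch, without overlap. Among 32536 distinct promoters, 4.0% held it at least once in the 109 bases before the start and 0.184% held it at least 2 times. Direct repeats of AGGTCA, searched on both strands, were not found there with 4 bases between the copies, the form the liver X receptors are known to prefer, or with 1 base. Up to 2 mismatches were allowed, and at that allowance 1.09% and 1.4% of promoters held them in windows of that length. The other motifs searched, TCAAGGTCA and TCACCCCAC with up to 1 mismatch, were not found there either, against 2.54% and 3.91% of promoters. A match or its lack describes letters in this window only, and RefSeq gives Abcg8 a further start 6819 bases upstream.

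Pairs of arrays of the same group had a Pearson's r from 0.933 to 0.948 over all probe sets other than controls, which are not independent, and pairs from different groups one from 0.933 to 0.943. The share of probe sets above a background reference, the 95th percentile of 27 bacterial control probe sets of each array, ran from 64.4% in Chga_KO replicate 2 to 76.9% in WT replicate 3. Chga, read by 1 probe set, was dim in both groups, at 61.5, 44.5 and 231 in knockout and 167, 185 and 42.5 in wild type, so it does not check the labels. Liver identity was checked on marker lists: all 9 hepatocyte markers on the array were above the reference on every array, as were 11 of 12 endothelial, 9 of 11 Kupffer cell and macrophage, 8 of 11 stellate cell, 2 of 4 pancreas, 0 of 5 cholangiocyte and 0 of 5 lymphocyte markers. Stellate cell markers were lower in knockout in 8 of 8 kept genes (median -0.21, 0 passed). Over all 11 on the array they summed to 24058 to 30467 against 28151 to 36719.5, with overlapping groups. Kept hepatocyte markers were higher in 8 and lower in 1 (median 0.11, 0 passed). Kept endothelial markers were higher in 5 and lower in 6 (median -0.02, 0 passed). Pancreas markers summed to between 5417.5 and 8380.2 in knockout and between 9699 and 10339.7 in wild type, without overlap. Most of that sum was Cela1, at 7968, 6765 and 4663 in knockout and 9489, 9132 and 9650 in wild type. Cela2a read 302, 393 and 652 in knockout and 432, 504 and 595 in wild type, with overlapping groups. Cpa1 and Ctrb1 were at or below the reference on every array. The part of these cells in the members' values was not tested. In whole liver, fewer cells of a type and less RNA per cell cannot be told apart.

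The question for these genes is whether their transcripts differ in liver that lacks Chga. Of the 16 member probe sets, 15 passed the filter on dim probe sets, which keeps the upper 60% by mean log2 value, and they were tested within a fit of all 13576 kept probe sets. Abcg8 fell, and no other member passed: 1 of 15 probe sets was called, 1 lower and 0 higher, where 0.376% of all kept probe sets were called, 0.184% lower and 0.192% higher. The groups did not overlap for 8 of the 15, 5 lower and 3 higher in knockout, against 15.6% of all kept probe sets, 8.12% lower and 7.44% higher. An unadjusted p under 0.05 was reached by 8 of the 15, against 9.97% of all kept probe sets. These probe sets share genes, and by the brightest probe set of each gene 3 of 9 genes had groups that did not overlap, 2 lower and 1 higher. By the same probe sets, 3 genes were lower and 1 higher at an unadjusted p under 0.05 with limma. Members were chosen with earlier results of these data known, and their median SE was 0.127, against 0.192 for all kept probe sets. The median change over the 15 was -0.19 on the log2 scale, and that of all kept probe sets was -0.02.

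**Figure D1:**
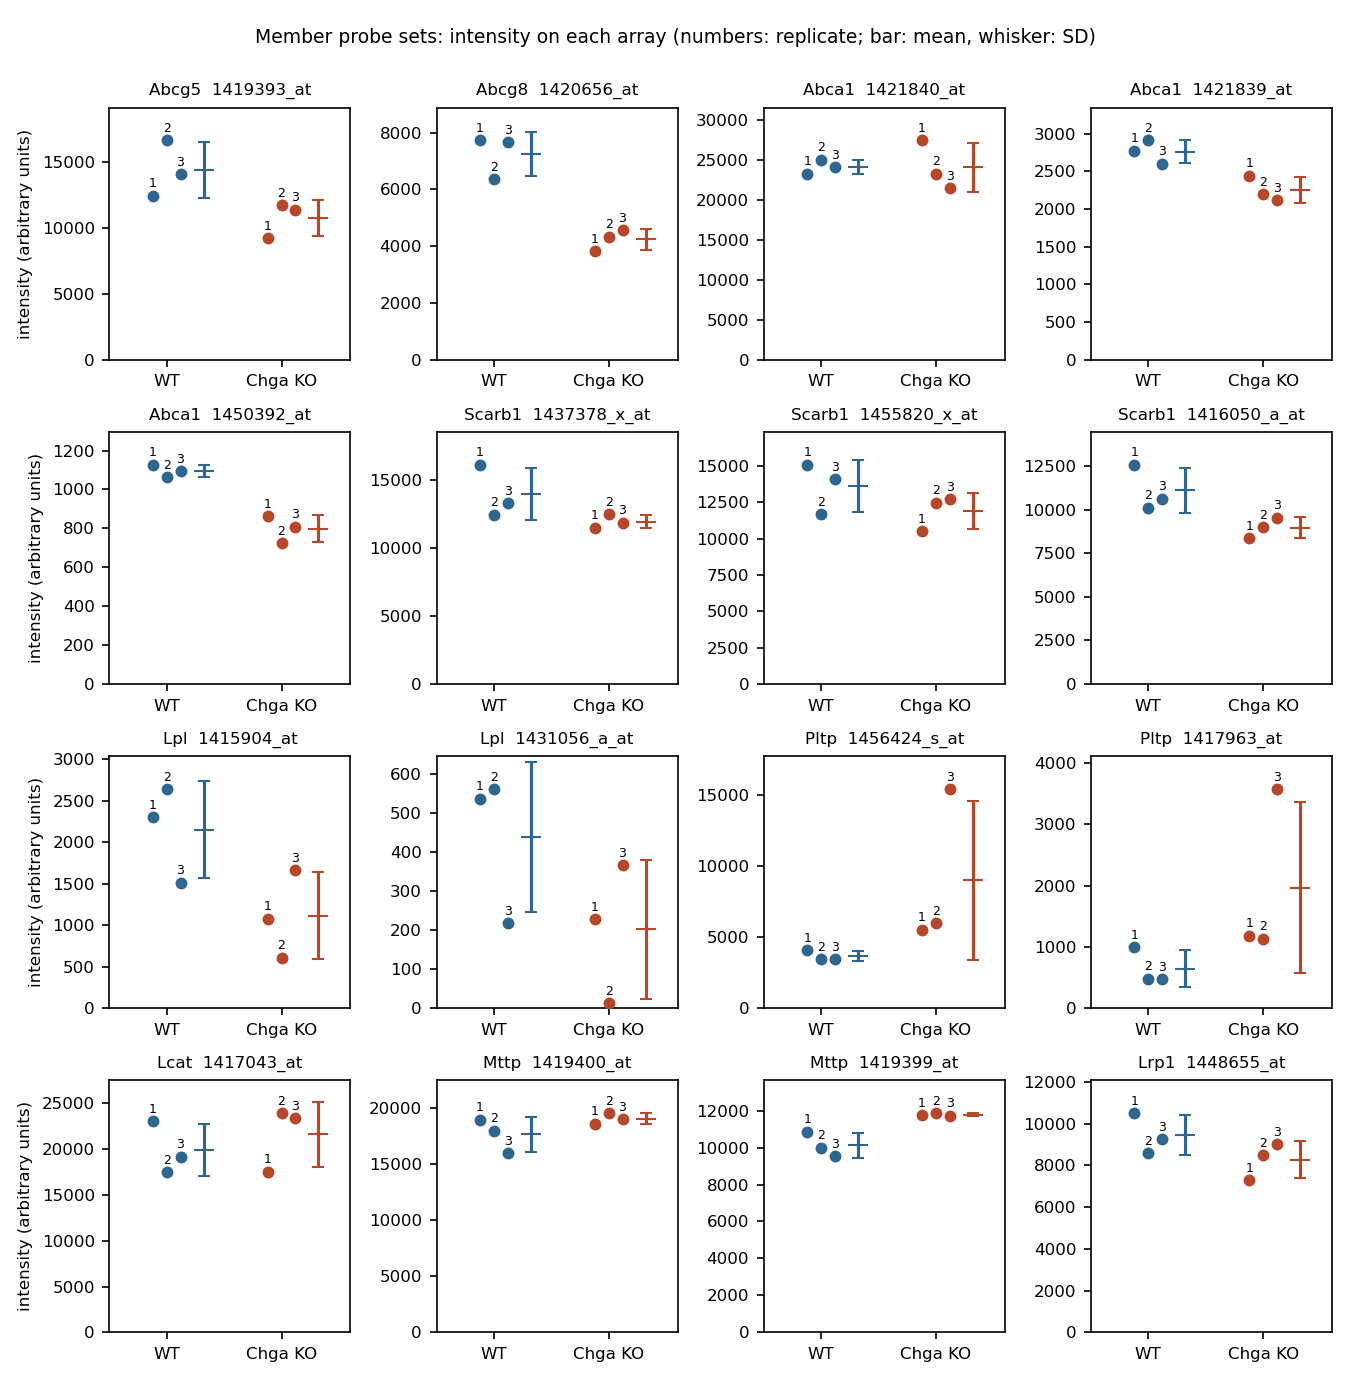
Intensity in arbitrary units of each of the 16 member probe sets, 1 panel per probe set with its own axis from 0, in the 3 wild-type (blue) and 3 knockout (red) arrays; points are arrays numbered by replicate, the bar is the mean and the whisker the SD. Abcg8 lies between 3813 and 4556 in knockout, below every wild-type array, and the high point of both Pltp panels is knockout replicate 3.

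Abcg8, the pump subunit that pairs with Abcg5, gave intensities of 3813, 4340.3 and 4556 in knockout liver and of 7722, 6350.3 and 7669.5 in wild-type liver. Every knockout array lay below every wild-type array, and the highest knockout value was 4556 against a lowest wild-type value of 6350.3. Group means were 4237 ± 382 and 7247 ± 777 (SD, n = 3 each). Its log2 change of -0.77 ± 0.13 (SE, 95% interval -1.05 to -0.49, 0.586-fold) passed with limma at an adjusted p of 0.0369. This call is narrow. It was lost in 6 of 16 alternatives, among them the fits without Chga_KO replicate 1 (adjusted p = 0.0659) or 2 (0.105), without WT replicate 1 (0.164) or 3 (0.147), and without the intensity trend (0.238), while the change stayed between -0.70 and -0.86 with any array left out.

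Abcg5, the other subunit, read 9209, 11693 and 11377.5 in knockout and 12429, 16620.2 and 14080.2 in wild type. Its groups did not overlap either, with knockout replicate 2 and wild-type replicate 1 nearest each other. The log2 change was -0.42 ± 0.13 (95% interval -0.71 to -0.12, 0.75-fold) and did not pass with limma (adjusted p = 0.305), nor under any alternative (adjusted p from 0.241 to 0.681). With 1 array left out it ran from -0.31 to -0.52. Both subunits were thus lower in 3 of 3 knockout arrays than in any wild-type array, with only Abcg8 past the threshold, and whether their changes differ was not tested.

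**Figure D2:**
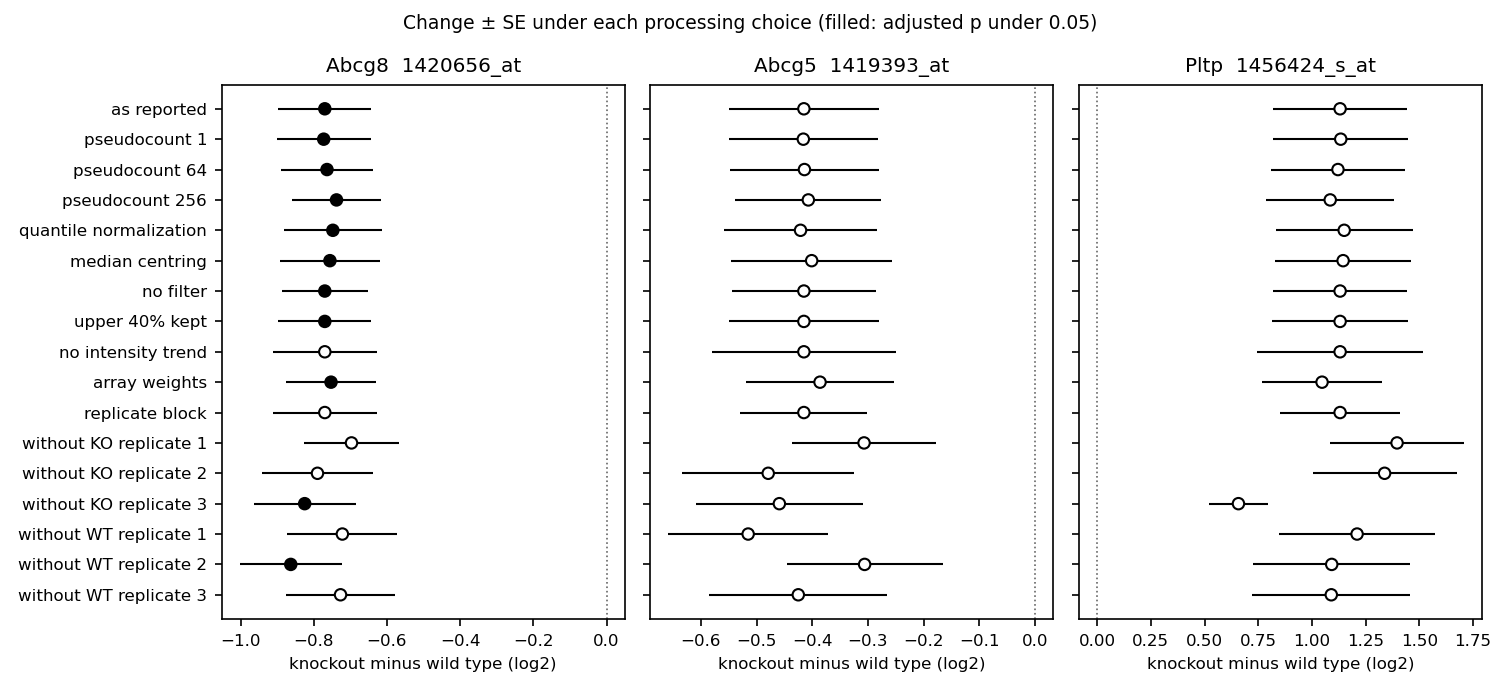
Log2 change, knockout minus wild type, with its SE (x axis) under each processing choice (y axis), for the leading probe sets of Abcg8, Abcg5 and Pltp; filled points passed at an adjusted p under 0.05. Abcg8 passes in 10 of 16 alternatives and Abcg5 and Pltp in 0, and Pltp is nearest 0, at 0.66, without knockout replicate 3.

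Abca1, the pump that builds nascent HDL, is read by 3 probe sets that gave different answers. The brightest, 1421840_at, read 27410.2, 23269.7 and 21460.5 in knockout and 23259.5, 25011 and 24102 in wild type, and the groups overlapped at a log2 change of -0.01 ± 0.10 (adjusted p = 0.985). The second, 1421839_at, read 2441, 2201 and 2119 in knockout and 2775, 2909 and 2603 in wild type, a change of -0.29 ± 0.14 (adjusted p = 0.507). The dimmest, 1450392_at, read 861, 723 and 808 in knockout and 1127, 1063 and 1095 in wild type, a change of -0.45 ± 0.19 (adjusted p = 0.470). For the dimmer pair no knockout array reached any wild-type array, whereas for the bright probe set knockout replicate 1 was the highest of all 6 arrays. Across the 6 arrays the dimmer probe sets correlated at 0.895 with each other and at 0.433 and 0.177 with the bright one (Pearson's r, a description over shared arrays). The files do not say which part of the transcript each probe set reads. No Abca1 probe set passed.

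Scarb1, the receptor that takes up HDL cholesteryl ester, also has 3 probe sets, all with negative changes that did not pass. Probe set 1416050_a_at read 8383, 9009.6 and 9551 in knockout and 12591, 10129.9 and 10645 in wild type, so its groups did not overlap (-0.30 ± 0.11, adjusted p = 0.408). Probe set 1437378_x_at stood at -0.22 ± 0.11 (adjusted p = 0.581) and 1455820_x_at at -0.19 ± 0.12 (adjusted p = 0.653). In both the groups overlapped through wild-type replicate 2, at 12435 and 11682. The ending _x_at marks probe sets whose probes can match other sequences, so these values may hold signal of other transcripts. The 3 probe sets followed each other over the arrays, with correlations of 0.851 to 0.933, and wild-type replicate 1 was the highest array in each.

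Lcat, which esterifies HDL cholesterol in plasma, read 17495, 23875 and 23338 in knockout and 22982, 17461 and 19124 in wild type. The groups overlapped over nearly their whole ranges, and the change was 0.12 ± 0.14 (95% interval -0.20 to 0.43, adjusted p = 0.829). That interval leaves room for a change of either sign.

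Pltp, the phospholipid transfer protein, had the largest positive change among the members without passing. Its brighter probe set, 1456424_s_at, read 5527, 5987 and 15409 in knockout and 4065.5, 3452 and 3439 in wild type. The other, 1417963_at, read 1182, 1135 and 3575.5 in knockout and 992, 480.3 and 469 in wild type. All knockout arrays lay above all wild-type arrays in both, but knockout replicate 3 stood far above the other two. Changes were 1.13 ± 0.31 (2.19-fold, adjusted p = 0.200) and 1.45 ± 0.43 (2.73-fold, adjusted p = 0.245). Without knockout replicate 3 they were 0.66 ± 0.14 (adjusted p = 0.102) and 0.91 ± 0.34 (adjusted p = 0.446), over 1.5 times smaller. The ending _s_at marks a probe set shared by several transcripts, and the probe sets correlated at 0.963 over the arrays.

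**Figure D3:**
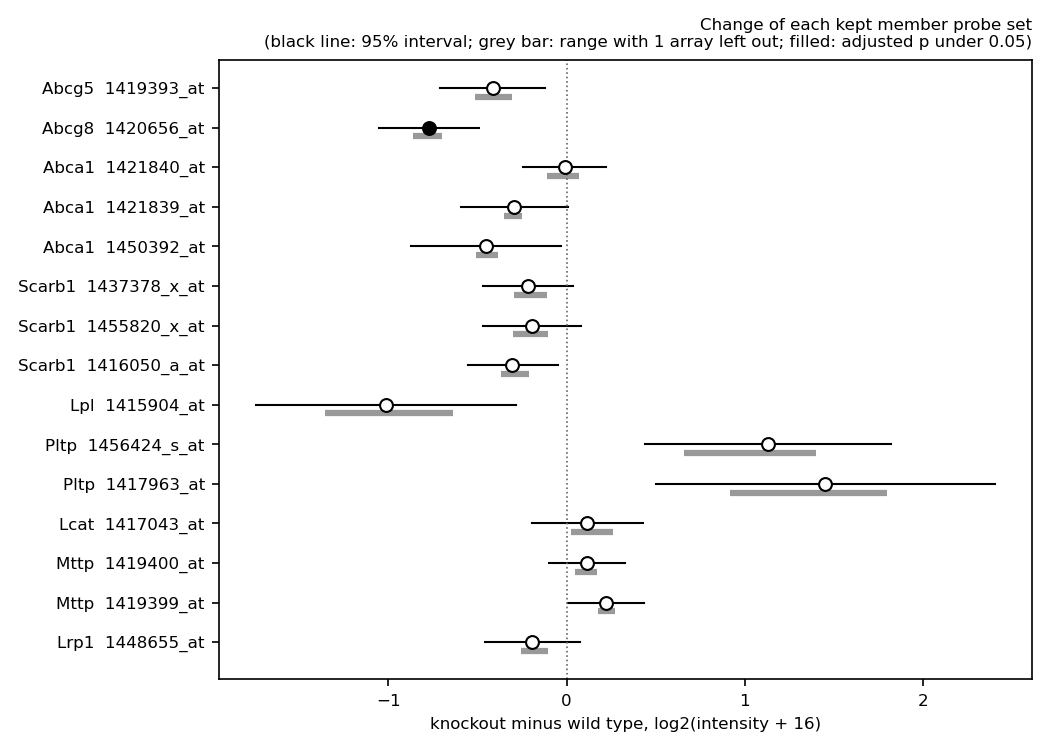
Log2 change, knockout minus wild type (x axis), of the 15 kept member probe sets (y axis); the point is the change, the black line its 95% interval in the fit, the grey bar the range with 1 array left out, and a filled point passed at an adjusted p under 0.05. Abcg8 alone is filled, the Lpl and Pltp intervals are the widest, and the bright Abca1 probe set lies at -0.01.

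Lpl, the lipase of capillary walls, is made mainly by muscle, adipose tissue and macrophages and little by adult hepatocytes. Probe set 1415904_at read 1080.2, 608 and 1661 in knockout and 2305, 2642 and 1513 in wild type. The groups overlapped, with knockout replicate 3 above wild-type replicate 3. The change was -1.01 ± 0.33 (0.496-fold, 95% interval -1.74 to -0.28, adjusted p = 0.312), and it ran from -0.64 without knockout replicate 2 to -1.35 without knockout replicate 3. A dimmer probe set, 1431056_a_at, was removed by the filter and read 227, 12.1 and 366 in knockout and 536, 561 and 217 in wild type.

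Markers of cells that make Lpl were set beside it. Summed levels of 11 Kupffer cell and macrophage markers on the array were 21223, 26268 and 29930.4 in knockout and 31928, 33643 and 25100.3 in wild type, with overlapping groups. Of the 10 markers kept, 8 were lower and 2 higher in knockout (median -0.26), 0 passed, and Marco was at or below the reference on every array. The sum and Lpl were both highest in wild-type replicate 2, but their lowest arrays differed, knockout replicate 1 for the sum and knockout replicate 2 for Lpl. Adipocyte markers summed to between 1143.5 and 2589 in knockout and between 1022 and 2181.5 in wild type over 5 genes. Only 1 of the 5 was above the reference on every array, and Lep was at or below it on every array. Skeletal muscle markers summed to between 1974 and 2811 in knockout and between 2418 and 3451 in wild type over 9 genes. Only 2 of the 9 were above the reference on every array, and Actn3 was at or below it on every array. Both sums thus hold mostly genes not above the reference on every array. The part of these cells in the Lpl values was not tested.

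**Figure D4:**
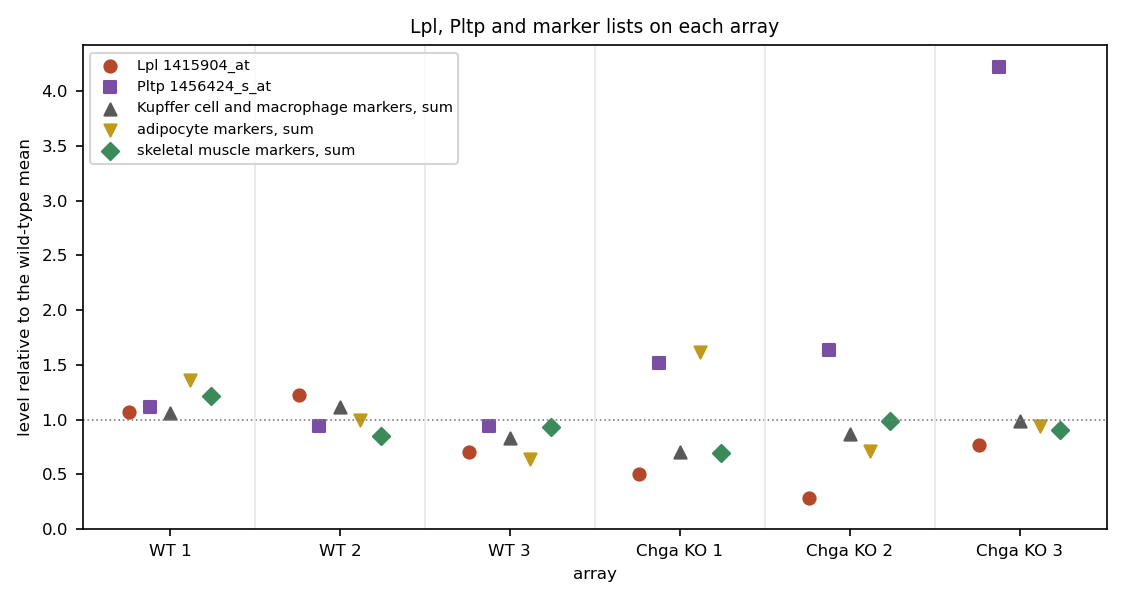
Level on each array (x axis) relative to the wild-type mean (y axis, linear from 0) of the brighter probe sets of Lpl and Pltp and of the summed Kupffer cell and macrophage, adipocyte and skeletal muscle markers. Lpl is lowest in knockout replicate 2, at an intensity of 608, and Pltp stands apart in knockout replicate 3, at 15409.

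Mttp, which lipidates apolipoprotein B, was among the most even of the members. Probe set 1419399_at read 11753, 11860.2 and 11725.5 in knockout and 10851, 9992 and 9536 in wild type, without overlap, and stood at 0.22 ± 0.10 (adjusted p = 0.496). Probe set 1419400_at stood at 0.11 ± 0.10 (95% interval -0.10 to 0.33, adjusted p = 0.738), with overlapping groups. Its coefficient of variation was 2.49% in knockout and 8.62% in wild type, against 47.2% and 26.9% for Lpl. Lrp1, the endocytic receptor for remnants, read 7301, 8499.5 and 9005.5 in knockout and 10497, 8585 and 9252 in wild type. Those groups overlapped at -0.19 ± 0.12 (95% interval -0.46 to 0.08, adjusted p = 0.641).

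Among the genes around these pumps and enzymes, 69 genes in 7 lists were measured by a kept probe set and 0 passed with limma. At an unadjusted p under 0.05 there were 13 of the 69, 2 lower and 11 higher, against the 9.97% of all kept probe sets. That share was not split by direction, so the 2 and 11 have no background beside them. The median change of the 69 genes was 0.04. The lists were chosen with earlier results of these data known, and some genes stand in more than 1.

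Canalicular and intracellular sterol transport held 8 measured genes, 4 higher and 4 lower (median -0.003). Npc1, which moves cholesterol out of lysosomes, read 5819, 6514 and 6653 in knockout and 9237, 10328 and 8943 in wild type. These groups did not overlap, at -0.585 ± 0.11 and an adjusted p of 0.0541. Abcb4, the phospholipid floppase that works beside the sterol pump at the canaliculus, stood at -0.22 ± 0.11 (adjusted p = 0.565), and the bile salt pump Abcb11 at 0.48 ± 0.10 (adjusted p = 0.0748). Slc10a1, the bile salt uptake transporter, was at 0.245 ± 0.09 (adjusted p = 0.407) with overlapping groups, and its 2 kept probe sets ran from 0.079 to 0.245.

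The liver X receptor axis, with 12 measured genes, had 6 higher and 6 lower (median -0.02). Nr1h3, the liver X receptor of hepatocytes, was at 0.16 ± 0.16 (adjusted p = 0.791) with overlapping groups. Of its partners, Rxrb stood at -0.51 ± 0.21 (adjusted p = 0.469), with wild-type replicate 3 at 5007 and all other arrays between 2269 and 2865. Rxra, the brighter of them, stood at -0.15 ± 0.12 (adjusted p = 0.725) with overlapping groups. Its 2 kept probe sets ran from -0.15 to 0.096. Known targets of the receptors took both signs: Scd1, a desaturase, stood at 0.23 ± 0.09 (adjusted p = 0.419), Srebf1, a regulator of lipogenesis, at 0.37 ± 0.17 (0.511), the phospholipid-remodelling enzyme Lpcat3 at -0.28 ± 0.13 (0.518) and the sterol pump Abcg1 at -0.17 ± 0.21 (0.831), while Mylip, which degrades the LDL receptor, was at 0.01 ± 0.16 (0.988).

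**Figure D5:**
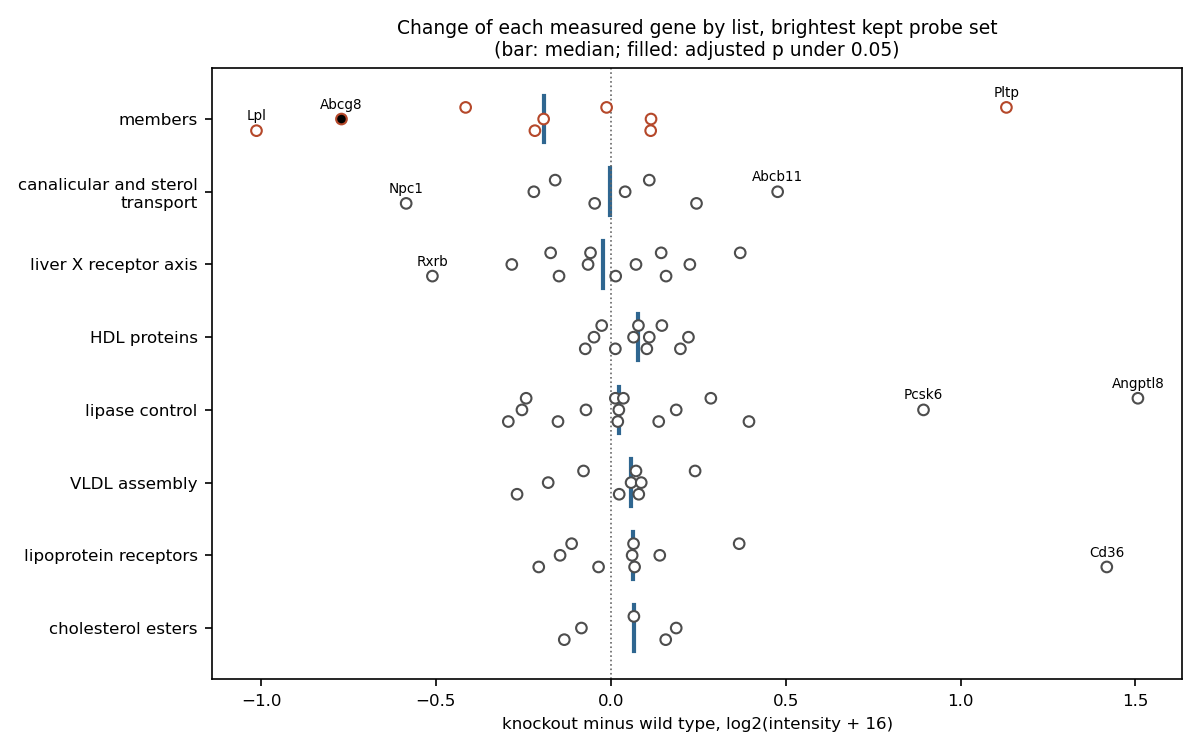
Log2 change, knockout minus wild type (x axis), of each measured gene by its brightest kept probe set, in the members and 7 lists of related genes (y axis); bars are list medians and a filled point passed at an adjusted p under 0.05. Abcg8 alone is filled, and Angptl8 and Cd36 lie farthest to the right, at 1.51 and 1.42.

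Genes that control lipases numbered 15, of which 10 were higher and 5 lower (median 0.02). Angptl8, a secreted inhibitor of LPL activity, read 4068, 3256 and 3449 in knockout and 687, 1737 and 1621 in wild type. Its groups did not overlap, at 1.51 ± 0.30 and an adjusted p of 0.0635. Apoc3, another LPL inhibitor, stood at 0.395 ± 0.08 (adjusted p = 0.0669), and the proprotein convertase Pcsk6 at 0.89 ± 0.26 (adjusted p = 0.234). HDL proteins numbered 11, with 8 higher and 3 lower (median 0.08), among them Apoa2 at 0.22 ± 0.09 (adjusted p = 0.445), the carboxylesterase Ces1c at 0.20 ± 0.08 (0.449) and Apoe at 0.15 ± 0.09 (0.649).

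Partners of Mttp in VLDL assembly numbered 9, with 6 higher and 3 lower (median 0.06). Sar1b, a GTPase of vesicles that leave the endoplasmic reticulum, stood at 0.24 ± 0.09 (adjusted p = 0.374), the lipid droplet coat Plin2 at -0.27 ± 0.14 (0.578) and the sorting receptor Sort1 at -0.18 ± 0.17 (0.773), whose 3 kept probe sets ran from -0.19 to 0.46. Lipoprotein receptors and their helpers numbered 10, with 6 higher and 4 lower (median 0.06). Cd36, a scavenger receptor and fatty acid transporter, read 2787, 1719 and 3043 in knockout and 855, 1239.8 and 697 in wild type, at 1.42 ± 0.26 and an adjusted p of 0.0504. Sdc1, a proteoglycan that binds remnants in liver, stood at 0.37 ± 0.09 (adjusted p = 0.116; -0.005 to 0.37 over its 4 kept probe sets), and the scavenger receptor Stab1 at -0.21 ± 0.18 (0.745). Enzymes and carriers of cholesteryl esters numbered 5, with 3 higher and 2 lower (median 0.07), led by the lysosomal lipase Lipa at 0.19 ± 0.10 (adjusted p = 0.577; 0.19 to 0.63 over its 3 kept probe sets), then the sterol-binding proteins Osbpl9 at -0.13 ± 0.09 (0.674) and Osbpl2 at 0.07 ± 0.11 (0.875).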

How the data were processed

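The deposited table gives 1 intensity per probe set and array, linear and without a physical unit. The submitters' processing notes name GCOS 1.2, and the summary algorithm, scaling rule and genome build are not given in the sources used here. Means trimmed by 2% at each end ran from 2501.32 to 2501.42, so the arrays had been scaled to a common level. Probe sets were named from the platform annotation, with symbols checked through the RefSeq gene table (GRCm38.p6), which changed none. Of 22690 probe sets, 64 control probe sets were left out. Members were all probe sets of 1 member symbol alone.

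After adding 16 and taking log2, limma 3.58.1 (R 4.3.3; lmFit, then eBayes with an intensity trend) was run over all 6 arrays without covariates on the upper 60% of probe sets by mean log2, adjusted by Benjamini-Hochberg over 13576 at 0.05. A pseudocount of 16 understates changes of dim probe sets. Exact permutation of 3 against 3 arrays cannot go below p = 0.1, so single values rest on this fit. The procedure was tested on simulated data. The number of arrays limits the precision.

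Members, lists and tests were chosen with earlier results of these data known. Named genes were all members, Chga, and in each list any gene that passed plus the 3 with the smallest p by their brightest kept probe set. Abcb4, Nr1h3, Rxra, Lpcat3, Abcg1 and Mylip were also named, for their role, after their values were seen. Alternatives were pseudocounts of 1, 64 and 16 times the one used, quantile normalization, median centring, no filter, the upper 40%, a fit without the trend, weights per array, a block for the replicate number, probe set means and each array left out.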

Additional observations from a re-analysis of the deposited data

How the results depend on the processing

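Of 239 values of the 15 member probe sets under 16 alternatives, 229 kept their sign and side of the threshold, 6 were Abcg8 losing its call and 4 were the bright Abca1 probe set, near 0, changing sign. The latter stood at 0.003 after median centring and between -0.11 and 0.067 with 1 array left out. Averaging the kept probe sets of a gene changed no sign or call in the 4 genes with several kept probe sets, none of them called, with Abca1 at -0.25. The remaining genes, Abcg8 and Abcg5 among them, have 1 kept probe set, so averaging could not move their change. The count of member probe sets called was 0 without the intensity trend and with the replicate block, and from 0 to 1 with 1 array left out. Replicate numbers are shared between groups, but same-numbered arrays did not deviate together (correlations from -0.065 to -0.059), so the block pairs arrays by a number only. With it Abcg8 had an adjusted p of 0.115, and over all probe sets 27 passed in place of 51. That count of 51 was 82 with a pseudocount 16 times as large, 82 with array weights, 7 without the trend and from 21 to 48 with 1 array left out. Of the 69 genes in the other lists, alternatives chosen after seeing the data called 1 with a pseudocount of 64, quantile normalization, median centring or array weights, 2 in the upper 40%, 3 with the largest pseudocount, and from 0 to 1 with 1 array left out. Those called were Cd36, Angptl8 and Npc1. The cause was not tested in any of these cases. Signal over background limits Chga, above the control reference on 2 of 6 arrays, and the dimmer Lpl probe set, above it on 5 of 6.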

Other observations

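The kept probe sets of single genes whose levels followed Abcg8 most closely over the 6 arrays were those of Zfp2 (Pearson's r = 0.994 on the log2 scale), Cpt1a (0.992), Tbl1x (0.991), Klf1 (0.988) and Fdx1 (0.987), out of 12474 compared. Their log2 changes were -0.64, -0.48, -0.17, -1.12 and -0.48, and Fdx1 passed with limma (adjusted p = 0.0413). All share the same 6 arrays and the same contrast of groups, so these values describe likeness only. Abcg5, the partner subunit, ranked 910th of 12474 at r = 0.728. Ranked above Abcg5 were all 3 Scarb1 probe sets (ranks 131, 596 and 661, r = 0.91, 0.788 and 0.777), the dimmest Abca1 probe set (rank 189, r = 0.892) and Lrp1 (rank 576, r = 0.794). The other Abca1 probe sets ranked 919th (r = 0.726) and, for the brightest, 8090th (r = -0.187). Lpl ranked 1311th (r = 0.663), and the probe sets of Pltp, Lcat and Mttp had negative correlations, from -0.044 to -0.836.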
